A study of Xenopus tropicalis with 2 samples.

Results

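Chaperone and heat shock genes were examined in a list of thyroid hormone receptor (TR) binding peaks from the tadpole brain. Members were picked by gene symbol, with no measured value in the rule. They were the HSP90, HSP70, HSP60, HSP10, HSP30 and small HSP families, J-domain proteins (dnaja, dnajb, dnajc), subunits of the chaperonin CCT with tcp1, prefoldin subunits with vbp1, bag1 to bag6, hsf1, hsf2 and stip1. Of 5285 genes with a peak in their body or within 10 kb upstream, 41 were members, and they held 44 of the 6302 peaks. Where the deposited annotation cited an NCBI gene, that gene decided the name. This brought in pfdn2, listed under the name kdm4b, and LOC734020, described as a provisional ortholog of DNAJC3. It left out a thap9 entry listed as hsp90b1 and a c19orf54 entry listed as hspa1a. The gene hsf2.2 lay outside the symbol rule and was not counted. All 37 members on assembled chromosomes lay on the chromosome where the reference gene table places the same entry, and 4 members lay on unplaced scaffolds.

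The data came from wild-type Xenopus tropicalis at Nieuwkoop-Faber stage 62, the climax of metamorphosis, reared at 25 °C. Chromatin came from the middle brain region with the preoptic area, hypothalamus and thalamus, so cell types were mixed. One library was precipitated with a polyclonal antiserum to Xenopus TRs and 1 was input without antibody. The antiserum was not described as separating TR isoforms, and hormone was not varied. Each group had 1 library, so the comparisons below are descriptions without p-values.

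Chaperones bind unfolded or partly folded proteins and keep them from aggregating. HSP70 works in cycles set by J-domain proteins, which start ATP hydrolysis, and by nucleotide exchange factors such as BAG and HSP110 proteins, which release the client. HSP90 acts later, on clients that include nuclear receptors and kinases. Prefoldin and CCT together fold actin and tubulin, and HSP60 with HSP10 folds proteins in mitochondria. Heat shock factors switch on the stress-inducible members. TRs bind DNA with and without hormone and regulate genes according to whether hormone is present.

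A listed peak was found at 40 of the 97 chaperone and heat shock genes in the reference gene table, or 41.2% (exact 95% binomial interval 31.3 to 51.7%). The share over all 15628 named protein-coding genes was 29.9%. LOC734020 is the 41st member and stands in the table only under that placeholder, so it is not counted among the 97. Chaperone genes were short, with a median length of 11 kb against 20.4 kb for all named genes. Among genes between 6.91 and 23.3 kb long, the quartiles of the chaperone genes, 23 of 49 chaperone genes held a peak (46.9%, 32.5 to 61.7%) against 29.7% of all named genes. With only peaks whose summit lay within 1 kb of the gene's own transcription start site (TSS), the counts were 29 of 97 (29.9%) against 22.1% of all named genes. Among the 1000 peaks with the lowest adjusted p-values, a ranking other than that by fold, they were 19 of 97 against 7.68%. Genes whose deposited length deviated from the reference were also counted as having no peak, with the totals unchanged. This gave 34 of 97 against 26.6%. No intervals were computed for the counts out of 97 under these restrictions, and an excess under them was not tested. Other housekeeping families stood higher. Proteasome subunit genes held peaks in 25 of 38 cases (65.8%, 48.6 to 80.4%) and cytosolic ribosomal protein genes in 63 of 74 (85.1%, 75 to 92.3%). The interval of the chaperone genes overlapped that of the proteasome genes and lay below that of the ribosomal protein genes. Overlap of intervals does not show that shares are alike, and differences between the families were not tested.

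**Figure D1:**
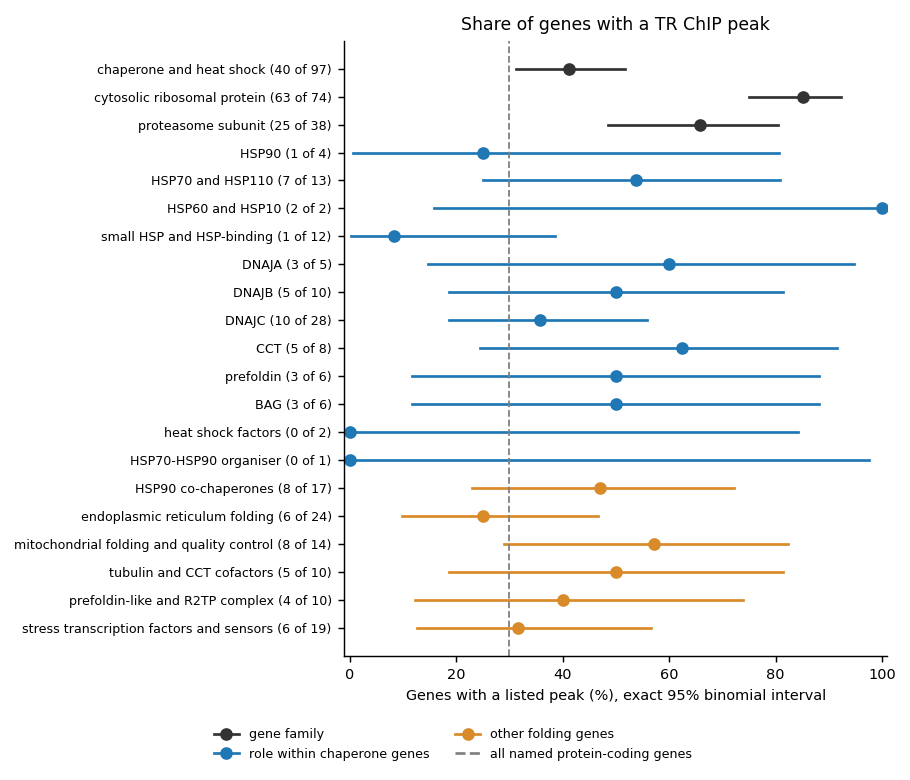
Share of reference genes with at least 1 listed TR ChIP peak (x axis, percent) for chaperone genes and 2 other families (black), for the roles within the chaperone genes (blue) and for other folding genes (orange), with exact binomial intervals as lines and the share of all named protein-coding genes, 29.9%, as a dashed line. Among roles of 10 or more genes the share is lowest for the small HSPs with HSP-binding proteins (1 of 12, the gene hspbap1), and the intervals of all the roles span the dashed line.

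The shares differed in size between roles, but most roles had few genes and wide intervals. CCT genes held peaks in 5 of 8 cases, HSP70 and HSP110 genes in 7 of 13, DNAJB genes in 5 of 10, DNAJA genes in 3 of 5 and DNAJC genes in 10 of 28. Prefoldin and BAG genes each held peaks in 3 of 6. Both mitochondrial chaperonin genes, hspd1 and hspe1, were covered by the same peak. Genes with an hsp90 symbol held a peak in 1 of 4 cases, and small HSPs with their binding proteins in 1 of 12 (8.33%, 0.211 to 38.5%). Neither hsf1, hsf2 nor the HSP70-HSP90 adaptor gene stip1 had a listed peak.

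Peaks at member genes had a median fold of 4.62 (quartiles 3.83 to 6.05) over background, from 3.04 at cct6a to 19.8 at pfdn2. Fold here is the value of the authors' peak caller at the summit, ChIP fragments against expected background. The other peaks in gene regions had a median of 4.07 (3.44 to 5.05). Counted per pair of a gene and a peak, so that peaks shared by several genes weigh alike in both groups, the medians were 4.62 and 4.16. Member summits were covered by 13 to 128 ChIP fragments, with a median of 31.5 against 25 at the other peaks. The median expected backgrounds were 5.70 and 5.53 fragments. Member peaks were also wider, with a median of 441 bp against 342 bp. Of the 44 peaks, 10 (22.7%, 11.5 to 37.8%) were among the 630 with the highest folds, which are 10% of all peaks.

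**Figure D2:**
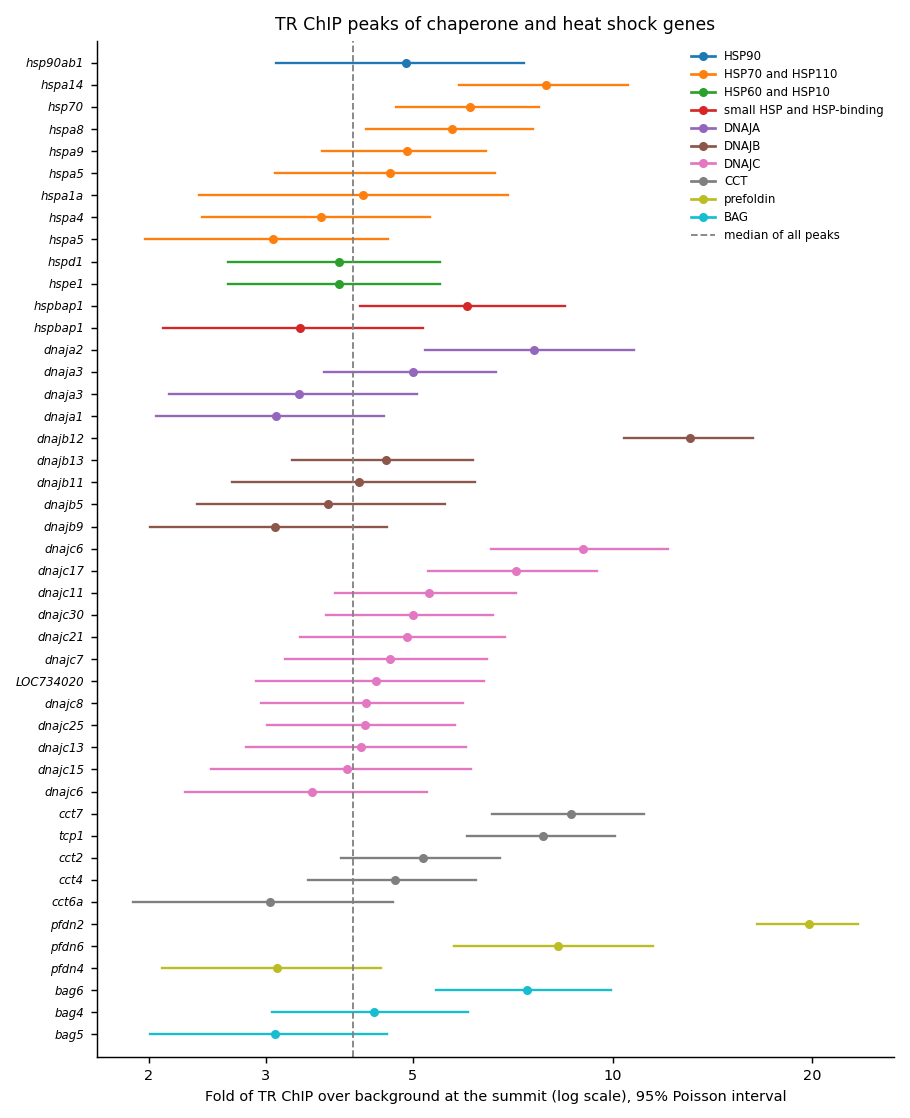
Fold of TR ChIP over background at the summit (x axis, log scale) for each pair of a member gene and a peak, ordered by role, with 95% Poisson intervals on the ChIP fragments as lines. The dashed line is the median of all peaks, 4.06, and the peaks of pfdn2 (19.8) and dnajb12 (13.1) lie to the right of all other members.

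Depth limited how well these folds could be ordered. For every member peak the background could be traced to whole control tags, 29 times in a window of 211 bp and 15 times in one of 1 kb. An interval on the ratio of ChIP fragments to background that counts the error of both had a lower bound above 2 at 33 of the 44 peaks. The lowest such bound was 1.59, at bag5 and dnajb9. At pfdn2 the ratio was 23.1 with an interval of 11.8 to 51.8, from 128 ChIP fragments and only 9 control tags. At dnajb12 it was 15.4 (10.4 to 23.1), from 80 ChIP fragments and 40 control tags in the wider window. These intervals overlap, so the order of the top pair is not settled. Intervals cover counting error only, and all peaks had been selected for being high.

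**Figure D3:**
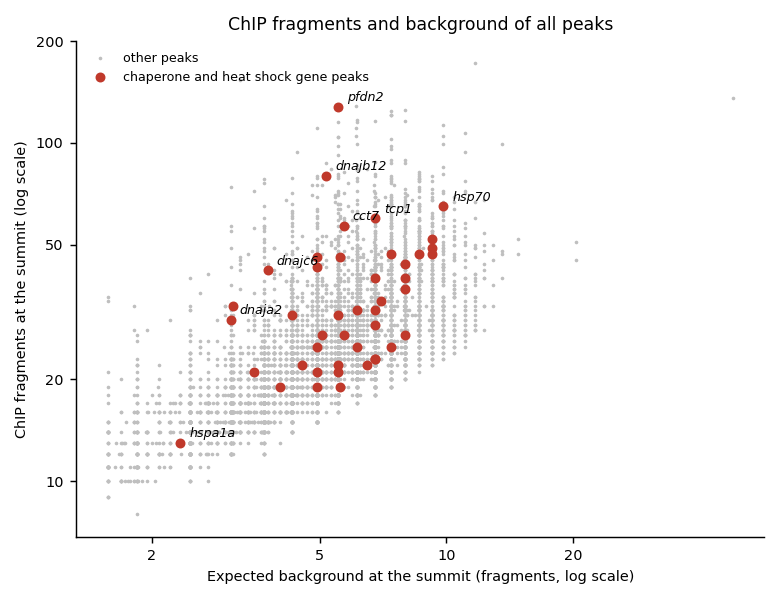
ChIP fragments at the summit (y axis, log scale) against the expected background (x axis, fragments, log scale) for all 6302 peaks (grey) and the 44 peaks of chaperone and heat shock genes (red). Member peaks run from hspa1a, with 13 fragments over 2.33, to pfdn2, with 128 over 5.53, which has the second highest fold of all peaks.

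The symbol rule took in 13 HSP70 and HSP110 genes, and hsph1 and hyou1 lay outside it. Of the 13, the genes hspa8, hspa9, hspa14, hspa4 and hspa5 had a peak within 1 kb of the TSS. These were 5 genes (38.5%, against 22.1% of all named genes). No interval was computed for this share of few genes, and a difference from all named genes was not tested. Folds in this and the following paragraphs carry 95% Poisson intervals on the ChIP fragments. The gene hspa8, the constitutive cytosolic HSP70 that also strips clathrin from vesicles, had a broad peak of 1062 bp on chromosome 7 (54523547 to 54524608). Its summit lay 666 bp downstream of the TSS, with 47 fragments over 7.37 and a fold of 5.73 (4.24 to 7.58). Its mitochondrial relative hspa9 had a peak 93 bp upstream on chromosome 3 with a fold of 4.89 (3.65 to 6.44). The gene hspa14, a ribosome-associated HSP70, had the highest fold of the family, 7.95 (5.86 to 10.5), from 46 fragments over 4.92, with its summit on chromosome 3 (72310191 to 72310850) 694 bp past the start of the gene. The HSP110-type exchange factor gene hspa4 had one of the weaker peaks, 3.64 (2.40 to 5.31), 196 bp downstream of the TSS. The peaks of hspa8, hspa9, hspa14 and hspa4 lay within 1 kb of the member's TSS, and beside the SNORD14 small nucleolar RNA entries at hspa8 no other gene was paired with them.

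The gene hspa5, encoding the endoplasmic reticulum chaperone BiP, had 2 peaks on chromosome 8. The one at its own start, 144 bp downstream of the TSS (10425962 to 10426177), had a fold of 3.07 (1.98 to 4.59) from 22 fragments over 6.48. The one with the higher value, 4.62 (3.10 to 6.65), lay 7.42 kb upstream (10418306 to 10418781). That summit was 48 bp downstream of the TSS of ppp6c, a phosphatase gene on the opposite strand. The intervals of both peaks overlap.

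The remaining HSP70 peaks lay more than 1 kb from the member's TSS. The gene hsp70 was paired with a peak of 6.09 (4.72 to 7.74) from 65 fragments over 9.83 on chromosome 8 (52795545 to 52795992). Its summit lay 10.2 kb upstream, just outside the 10 kb region, and 92 bp downstream of the TSS of vars1, the valyl-tRNA synthetase gene. The gene hspa1a had a peak 5.10 kb upstream with 13 fragments over 2.33, the lowest count and the lowest background of any member, and a fold of 4.20 (2.38 to 6.97). The reference length of hspa1a exceeds the deposited one by 7.97 kb, more than this distance, so where the peak lies relative to the start is uncertain. No peak was listed for hspa1b, hspa1l, hspa2, hspa13, hspa12a or hspa12b. Near-identical HSP70 copies can share reads, and how multiply mapped reads were handled is not given in the sources used here.

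Of the genes with an hsp90 symbol only the constitutive hsp90ab1 had a listed peak, 227 bp upstream of its TSS on an unplaced scaffold (6150 to 6537). It had 21 fragments over 3.5 and a fold of 4.89 (3.11 to 7.36). The stress-inducible cytosolic copies hsp90aa1.1 and hsp90aa1.2 and the endoplasmic reticulum form hsp90b1 had none. The HSP90 relative trap1 lay outside the symbol rule. It was counted with the mitochondrial folding genes below and had 2 listed peaks. The mitochondrial partners hspd1 and hspe1 are arranged head to head, and 1 peak on chromosome 9 (38197325 to 38197829) lay between their starts, which were 485 bp apart. Its summit was 185 bp upstream of hspd1 and 300 bp upstream of hspe1, with 29 fragments over 6.76 and a fold of 3.87 (2.63 to 5.50). A single summit between both starts cannot be assigned to either gene.

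The small HSPs hold unfolded proteins without using ATP. Grouped by symbol with the proteins that bind HSPs, they made up 12 genes, of which 1 had a peak. A symbol does not show that each gene product works in this way. The interval of that share (0.211 to 38.5%) includes the 29.9% of all named genes. No peak was listed for hspb1, hspb2, hspb3, hspb6, hspb7, hspb8, hspb11, the Xenopus genes hsp30c, hsp30d and hsp30e, or hspbp1, an HSP70 exchange factor. The gene with peaks was hspbap1, which is no small HSP itself, and whose product binds one. It had 2 on an unplaced scaffold. The first (111669 to 112246) lay 6.16 kb upstream with 31 fragments over 4.30 and a fold of 6.04 (4.16 to 8.49). The second (134263 to 134510) lay 16.3 kb downstream, inside the gene, with 19 fragments over 4.92 and a fold of 3.38 (2.10 to 5.19). Neither lay within 1 kb of the deposited TSS of hspbap1. Its reference length exceeds the deposited one by 5.81 kb, so where the first peak lies relative to the start is uncertain.

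J-domain proteins, which deliver clients to HSP70, made up the largest group. The highest fold among them was at dnajb12, which encodes a J-domain protein of the endoplasmic reticulum membrane that takes part in protein degradation. Its peak on chromosome 7 (35245886 to 35246966) was 1081 bp wide, the widest of all member peaks. The summit lay 672 bp downstream of the TSS with 80 fragments over 5.19, a fold of 13.1 (10.4 to 16.3) that ranked 40th of all peaks. No other gene was paired with this peak. The gene dnajb13, for a protein of cilia and sperm tails, followed with a peak on an unplaced scaffold (132683 to 132996), 38 bp upstream, with 40 fragments over 7.99 and a fold of 4.56 (3.29 to 6.17). The gene dnajb11, for a BiP partner, had one on chromosome 9 (43491464 to 43491841), 132 bp upstream, with 22 fragments over 4.54 and a fold of 4.15 (2.67 to 6.20). The other DNAJB folds were 3.72 at dnajb5 (4.49 kb upstream) and 3.09 at dnajb9, another BiP partner (427 bp upstream). None was listed for dnajb1, dnajb2, dnajb4, dnajb6 or dnajb14.

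Among DNAJC genes the highest fold was at dnajc6, which encodes auxilin, the neuronal protein that recruits HSP70 to clathrin-coated vesicles. Its first peak on chromosome 4 (79168719 to 79169660) lay 106 bp upstream of the TSS, with 42 fragments over 3.76 and a fold of 9.03 (6.57 to 12.1). A second peak 13.0 kb into the gene had a fold of 3.52 (2.26 to 5.25) from 22 fragments over 5.53 (79182204 to 79182429). The intervals of the folds did not overlap, but with the error of the background included, 6.80 to 18.6 at the first and 1.76 to 9.82 at the second, they did. Both dnajc6 and hspa8, which act together in vesicle uncoating, had a peak within 1 kb of the TSS, as did 22.1% of all named genes. No set of uncoating genes was counted. The gene dnajc17, whose product is a nuclear protein, had a fold of 7.15 (5.27 to 9.48) from 46 fragments over 5.57 at 128 bp upstream on chromosome 8 (94878813 to 94879335). The mitochondrial protein gene dnajc11 had one of 5.28 (3.81 to 7.15) from 40 fragments over 6.76, at 46 bp downstream on chromosome 7 (91598037 to 91598387).

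The remaining DNAJC folds ran from 3.98 to 5.00. Peaks within 1 kb of the TSS were those of dnajc7, which links HSP70 with HSP90 (4.62, 61 bp upstream), LOC734020 (4.40, 232 bp upstream), the spliceosome-associated gene dnajc8 (4.25, 4 bp upstream) and dnajc25 (4.23, 140 bp downstream). The peaks of dnajc30 (5.00), dnajc21 (4.90) and the endosomal protein gene dnajc13 (4.18) lay 1.15, 6.33 and 5.08 kb upstream, and that of the mitochondrial gene dnajc15 (3.98) lay 15.2 kb inside the gene. The reference length of dnajc13 exceeds the deposited one by 6.58 kb, so where its peak lies relative to the start is uncertain. The 18 DNAJC genes with no listed peak included dnajc5, the synaptic vesicle protein CSP, and dnajc10 and dnajc1 of the endoplasmic reticulum. The symbol dnajc3 was also among them, but LOC734020, the provisional ortholog of DNAJC3, had the peak given above.

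The DNAJA genes are the cytosolic and mitochondrial J-domain proteins closest to the bacterial form. The mitochondrial dnaja3 had 2 peaks on chromosome 9. One (14433678 to 14434138) lay 287 bp downstream of its TSS, with 44 fragments over 7.99 and a fold of 5.01 (3.67 to 6.68). The other (14437893 to 14438205) lay 3.74 kb upstream, with 21 fragments over 5.53 and a fold of 3.37 (2.14 to 5.07). The cytosolic dnaja1 had one on chromosome 1 (75536621 to 75537096) of 3.11 (2.05 to 4.53), from 25 fragments over 7.37 at 83 bp upstream. The peak paired with dnaja2 on chromosome 4 (25188939 to 25189657), with 30 fragments over 3.07 and a fold of 7.61 (5.22 to 10.8), lay 70.7 kb past the TSS in a deposited gene model of 84.4 kb. The reference table gives dnaja2 a length of 14.6 kb, so with the same start and that length the peak would fall beyond the gene.

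The chaperonin CCT, a ring of different subunits that folds actin and tubulin, had peaks near the TSS of all 5 genes that were listed. The highest folds were at cct7, 8.65 (6.59 to 11.2) with 57 fragments over 5.70 at 241 bp upstream on chromosome 1 (10440287 to 10441104), and at tcp1, 7.86 (6.03 to 10.1) with 60 fragments over 6.76 at 158 bp upstream on chromosome 5 (54206803 to 54207436). The gene cct2 on chromosome 3 (49667835 to 49668401) followed with 5.19 (3.90 to 6.77) from 52 fragments over 9.22 at 71 bp upstream, then cct4 with 4.70 (3.48 to 6.22) at 790 bp downstream and cct6a with 3.04 (1.89 to 4.67) at 297 bp downstream. The interval of cct6a lay below those of cct7 and tcp1, so subunits of 1 ring differed in fold by more than the counting error of the ChIP fragments. With the error of the background included, the interval of cct6a (1.88 to 5.98) still lay below that of cct7 (6.63 to 15.2), but overlapped that of tcp1 (4.62 to 18.7). This pair was picked as the highest and lowest of 5. No peak was listed for cct3, cct5 or cct8. As a group the 5 CCT peaks had a median of 52 ChIP fragments and a median width of 634 bp. Over all member peaks the medians were 31.5 fragments and 441 bp. Over the 30 member pairs within 1 kb of the own TSS, where all CCT peaks lay, they were 38.5 fragments and 466 bp.

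Prefoldin, which passes new actin and tubulin chains to CCT, held both one of the strongest and one of the weakest member peaks. The peak at pfdn2 on chromosome 8 (117255147 to 117255771) had the second highest fold of all 6302 peaks, 19.8 (16.5 to 23.5). Its summit lay 198 bp upstream of pfdn2 and 6 bp downstream of the TSS of nit1 on the opposite strand, and these starts were 192 bp apart. The gene pfdn6 was paired with a peak of 8.27 (5.77 to 11.5), from 33 fragments over 3.11, on chromosome 8 (51009461 to 51009790), 5.61 kb upstream of its TSS and 3.03 kb upstream of b3galt4. This peak was also paired with rps18, 38.1 kb past the deposited TSS of that gene. The gene pfdn4 had a peak of 3.12 (2.09 to 4.48) on chromosome 10 (26213352 to 26213765), from 27 fragments over 7.99 at 40 bp downstream. No peak was listed for pfdn1 or for the alpha-type subunit genes pfdn5 and vbp1.

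BAG proteins release clients from HSP70, though a symbol does not show that each gene product works in this way. The gene bag6, whose product guards membrane proteins before insertion, had a peak 79 bp upstream of its TSS on chromosome 8 (53621560 to 53621952), with 43 fragments over 4.93 and a fold of 7.42 (5.42 to 9.94). The gene bag4 had one of 4.37 (3.07 to 6.06) from 34 fragments over 7.0, at 319 bp upstream on chromosome 3 (121844021 to 121844619). The peak paired with bag5 on chromosome 8 (77600351 to 77600878), with 23 fragments over 6.76 and a fold of 3.09 (2.01 to 4.58), lay 7.58 kb upstream of the deposited TSS and 77 bp upstream of coa8 on the opposite strand. None was listed for bag1, bag2 or the stress-inducible bag3. Chromosome 8 carried 7 of the 41 members, but the share of all genes with a peak on that chromosome was not counted. Among these 7 members were pfdn6, hsp70 and bag6, whose human counterparts lie in the major histocompatibility complex. Their summits lay in that order, 1.79 Mb and 0.83 Mb apart, with 10 and 1 other listed peaks between them. A grouping of member peaks there was not tested.

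Most member summits lay near a TSS, as did most of the other peaks in gene regions. Of the 44 peaks, 35 (79.5%, 64.7 to 90.2%) had the summit within 1 kb of any TSS, an interval that includes the 64.9% of all peaks in gene regions, and 29 (65.9%, 50.1 to 79.5%) lay within 1 kb of a member's TSS. Per pair of gene and peak, 30 of 45 (66.7%, 51.0 to 80.0%) lay within 1 kb of the gene's own TSS, which includes the 56.6% of the pairs of other genes. Within that window 19 summits lay upstream and 11 downstream, at a median distance of 172 bp. Pairs more than 1 kb downstream were 4 of 45 (8.89%, 2.48 to 21.2%) against 24.8% of other pairs, but longer genes have more room for them. Among genes of 6.91 to 23.3 kb they were 2 of 26 (7.69%, 0.946 to 25.1%) against 12.8%, and pairs within 1 kb of the own TSS 17 of 26 (65.4%, 44.3 to 82.8%) against 69.8%, both intervals including the share of the other genes. Pairs over 1 kb upstream made up 11 of 45 (24.4%, 12.9 to 39.5%) against 18.6%.

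**Figure D4:**
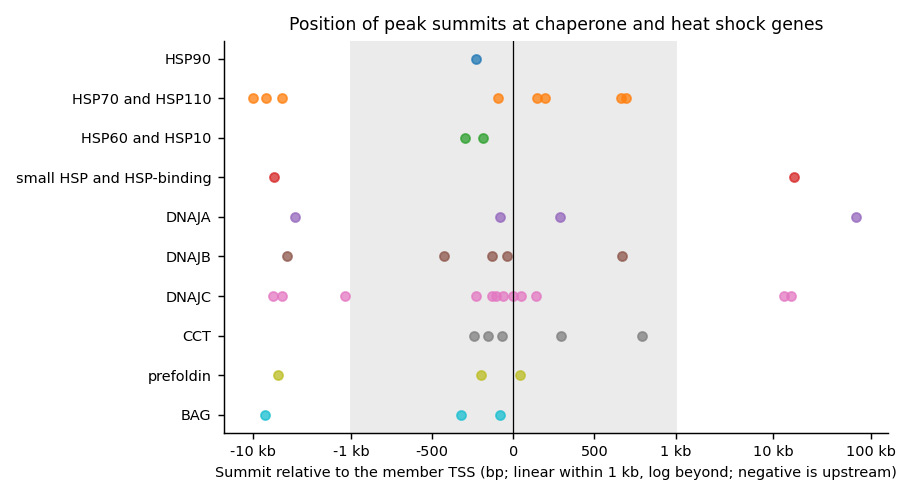
Position of each summit relative to the member's TSS (x axis, bp, linear within 1 kb and logarithmic beyond, negative upstream), with 1 point per pair of gene and peak and 1 line per role. The grey band marks 1 kb on either side of the TSS, which holds 30 of 45 points. All points of CCT (5 peaks), HSP90 (1 peak) and HSP60 with HSP10 (1 peak, drawn for both genes) lie inside it.

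Many member peaks were paired with another gene as well. Of the 44 peaks, 25 (56.8%, 41.0 to 71.7%) were paired with at least 1 other gene, against 24.0% of all peaks in gene regions. Peaks shared by several genes have more chances to be paired with a member, so the count per pair is the fairer one. By that count 26 of 45 member pairs (57.8%, 42.2 to 72.3%) and 41.3% of other pairs were shared. Some of the other genes start inside the member gene, such as the SNORD14 entries at hspa8, snora29 at tcp1 and unnamed entries at cct6a. Such entries were left in both counts. For 23 of the 41 members every peak was shared, and the same count over all genes was not made. Starts on both strands within 1 kb of the summit were found at 6 of the 35 TSS peaks, against 12.9% of all TSS peaks, and per pair at 7 of 30 (23.3%, 9.93 to 42.3%) against 22.7%, which is close to the background.

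The 6 peaks with starts on both strands were those of hspd1 with hspe1, pfdn2 with nit1, cct7 with pradc1, dnaja1 with the DNA repair gene aptx, dnajb9 with thap5 and bag4 with the mRNA decay gene lsm1. In 5 of the 6 the genes pointed away from each other, while those of bag4 and lsm1 overlapped. The gap between starts was 151 bp for dnaja1 and aptx, 456 bp for dnajb9 and thap5, 592 bp for bag4 and lsm1 and 938 bp for cct7 and pradc1. At dnajb9 the summit was 29 bp from the start of thap5 and 427 bp from its own, and at cct7 it was nearer to its own start (241 bp) than to that of pradc1 (697 bp). Folds at these shared starts ran from 3.09 at dnajb9 to 19.8 at pfdn2.

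Of the 11 peaks more than 1 kb upstream of a member, 6 (54.5%, 23.4 to 83.3%) had their summit within 1 kb of the TSS of another gene, in each case on the opposite strand. The share over the other genes' upstream pairs was 51.8%, close to that of the members. These were hsp70 with vars1 (92 bp), bag5 with coa8 (77 bp), hspa5 with ppp6c (48 bp), dnajc21 with the ribosome assembly gene brix1 (1 bp), dnaja3 with coro7 (169 bp) and dnajc30 with the rRNA methyltransferase gene bud23 (50 bp). The distances also rest on the deposited gene models. For bag5, pfdn6, dnajb5, hspa1a and dnajc30 the deposited model was under 0.6 times the reference length. The reference was longer by 6.62 kb for bag5, 3.68 kb for pfdn6, 11.7 kb for dnajb5, 7.97 kb for hspa1a and 1.34 kb for dnajc30. For dnajc13 and hspbap1 the ratio was higher, 0.93 and 0.79, but the reference was still longer by 6.58 and 5.81 kb. Their peaks lay 5.08 and 6.16 kb upstream of the deposited TSS. Whether the added length lies at the start of the gene was not tested.

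**Figure D5:**
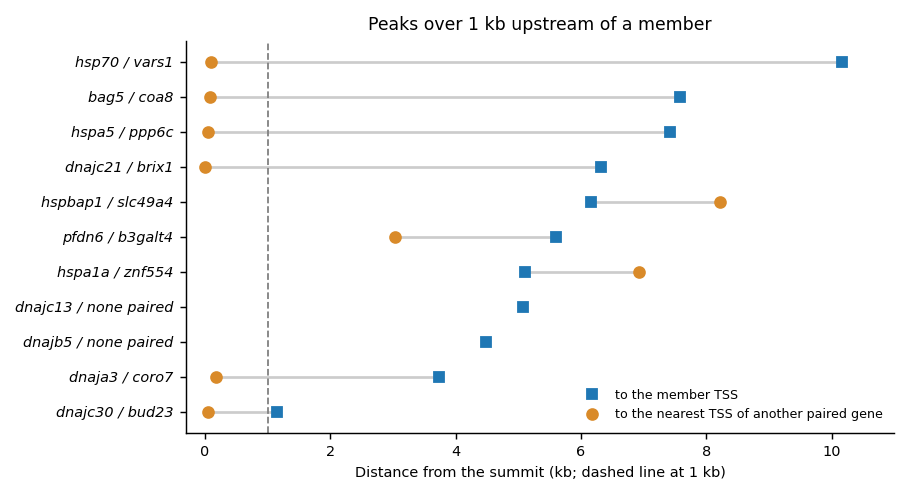
Distance of the summit (x axis, kb) to the member's TSS (squares) and to the nearest TSS of another gene paired with the same peak (circles) for the 11 peaks more than 1 kb upstream of a member. In 6 of 11 the circle lies within 1 kb, from 1 bp at brix1 to 169 bp at coro7, and dnajc13 and dnajb5 had no other paired gene.

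Genes that work with these chaperones were counted through 6 lists. In all 37 of 94 such genes held a peak (39.4%, 29.4 to 50%), against 29.9% of all named genes. The counts were 8 of 17 for HSP90 co-chaperones and 8 of 14 for mitochondrial folding and quality control. They were 5 of 10 for cofactors of tubulin and CCT, 4 of 10 for the prefoldin-like and R2TP complexes, 6 of 19 for stress transcription factors and sensors and 6 of 24 for folding in the endoplasmic reticulum. The highest folds among co-chaperones were at st13, an HSP70-binding protein (14.2, 11.4 to 17.5, 405 bp upstream), nudc (6.68) and the kinase-loading gene cdc37 (6.59). Mitochondrial genes were led by phb2 (11.0, 8.50 to 14.0, 5 bp downstream), the protease subunit gene clpx (7.27) and timm44 (6.85).

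Endoplasmic reticulum genes were led by uggt1, which marks misfolded glycoproteins (5.80), ero1b (4.54) and manf (3.52). The tubulin and CCT cofactors were led by arl2 (6.04), tbcd (3.72) and tbca (3.62), and the prefoldin-like and R2TP genes by pdrg1 (6.76), tti1 (5.19) and rpap3 (5.05). Among stress regulators the highest were the amino acid sensor kinase gene eif2ak4 (6.98), the oxidative stress factor gene nfe2l2 (5.63) and nfe2l1 (4.5). The unfolded protein response genes xbp1, atf6, ern1, eif2ak3 and ddit3 had no listed peak, nor had hsf3, hsf4 or hsf5, while atf4 had 2 with a highest fold of 3.92. The peaks of st13, nudc, phb2, clpx, arl2, ero1b, tti1, rpap3 and nfe2l1 were also paired with other genes.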

How the data were processed

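Per the labels' protocols, chromatin was fixed with formaldehyde, sonicated and precipitated with the TR antiserum. Per the submitters' processing notes, the tools were MACS2 2.2.6, deepTools 3.5.1, BWA 0.7.17, Picard 2.18.2, fastp 0.20.1, SAMtools 1.13 and FastQC 0.11.9. Their roles, the genome build and the peak threshold are not given in the sources used here. The deposited peak list gives, per peak, a fold ratio, the −log10 of the p-value and adjusted p-value, and a score, all by the authors' peak caller. Library totals are unknown.

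The number of ChIP fragments and the background were solved from the deposited fold, (ChIP + 1) / (background + 1), and p-value, an upper Poisson tail, for all 6302 peaks (largest misfit 2.48e-05). Backgrounds lay on steps of 0.6144 fragments, or on the matching step of a 1 kb window, in 64.9% and 32.1% of peaks. These steps were read as whole control tags, which was not stated by the authors. Tested on 4997 peaks simulated with these same formulas, the solution recovered 100.0% of them. This checks the arithmetic of the solution only, and not the reading of the steps as control tags. Intervals on folds are exact Poisson intervals of ChIP fragments, and those on ratios are exact and count control tags too. They cover counting error only.

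Genes were named by the cited NCBI gene where there was one, and otherwise by the deposited name where a description gave its source. This left 304 of 5285 genes unnamed, and a peak at one of these would be missed. The reference table (UCB_Xtro_10.0) served for names, chromosomes and lengths, without coordinates. Coordinates are those of the deposited list.

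Members and lists were chosen with earlier results of these data known. Of 98 listed genes, 94 were matched to the table. Each member with a peak is named, with position, fold and fragments for the 3 highest folds of a role and for genes with 2 peaks. The shares restricted by gene length were added after the data were seen. The 3 highest genes are named for each list. Promoter sequences were not analysed here. Python 3.11.15, SciPy 1.17.1 and pandas 2.3.3 were used.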

Additional observations from a re-analysis of the deposited data

How the results depend on the processing

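Of 21 alternatives, 18 stayed within 1.5 times the count or within the interval of the value reported. An alternative kept only the 1000 of the 6302 peaks with the lowest adjusted p-values. Chaperone genes with a peak then fell from 40 to 19 and other folding genes from 37 to 17. Fewer peaks cover fewer genes, and all named genes fell to 7.68%. The share of member peaks also paired with a gene outside the set was 54.5%, and 25.0% when the other gene's TSS had to lie within 1 kb of the summit, a narrower rule. When a peak counted only for the gene with the closest TSS, 30 of 97 chaperone genes held a peak against 24.8% of all named genes. No interval was computed for this count. In an alternative chosen after the data were seen, genes whose deposited length deviated from the reference were counted as having no peak. The count was then 34 of 97 against 26.6%, also without an interval. A planned count of promoter motifs was not run. No paired analysis was possible because each group had 1 library. Depth limits single folds: member summits rested on 13 to 128 ChIP fragments.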

Other observations

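Some genes with a peak had a description naming a chaperone or heat shock protein but lay outside the symbol rule. They were found within the peak list itself, so no share of all such genes can be given. The gene hsf2.2, a second copy of heat shock factor 2 deposited under the name xylt2, had 39 ChIP fragments over 4.28 and a fold of 7.58 (5.44 to 10.3) at 285 bp downstream of its TSS, while hsf1 and hsf2 had no listed peak. The gene hikeshi, which carries HSP70 into the nucleus, had a fold of 7.94 (5.83 to 10.6) at 4 bp downstream. The meiotic gene hsf2bp had one of 7.88 (6.11 to 10.01) at 139 bp upstream, and hsbp1, a heat shock factor binding protein, one of 3.89 (2.5 to 5.80) at 67 bp upstream. The proteasome assembly chaperones psmg4 (7.09) and psmg2 (4.72) and the histone chaperone asf1b (6.42) had summits 77, 31 and 280 bp upstream. The copper chaperone gene atox1 (4.59) had its summit 7330 bp upstream.

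Beyond the 10 kb regions, 1088 peaks were paired with no gene. Of these, 4 lay within 50 kb of the TSS of a member with a peak, at 3 members. The gene dnajb5 had 2 of them, at 29.6 and 30.4 kb upstream with folds of 5.75 (4.01 to 8.0) and 4.72 (3.17 to 6.80), both above the 3.72 of its own paired peak, with overlapping intervals. The others lay 21.0 kb upstream of dnajc30 (3.21) and 35.2 kb upstream of hspa4 (3.52). How many of the other genes had an unpaired peak within 50 kb was not counted.

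Short gene models went with upstream peaks in general. The deposited model was under 0.6 times the reference length in 17.5% (15.0 to 20.2%) of the other genes' pairs with a summit over 1 kb upstream, in 3.66% (3.08 to 4.32%) of those within 1 kb of the TSS and in 4.11% of those further downstream. For members the counts were 5 of 11, 0 of 30 and 0 of 4.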
